A study of Homo sapiens with 4 samples.

Results

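The kinases that phosphorylate splicing factors were examined by their transcripts in LV-M100 cells, with and without depletion of the U5 small nuclear ribonucleoprotein component SNRNP40. The members were chosen by gene symbol, as CLK1, CLK2, CLK3, CLK4, SRPK1, SRPK2, PRPF4B, DYRK1A and DYRK2, and every listed transcript of these symbols was kept, which gave 9 of 23217 gene symbols and 20 of 44578 transcripts. LV-M100 is a single-cell-derived, low-variability clone of the MDA-MB-231 breast cancer line. The 4 libraries were made from total RNA taken 48 h after transfection and depleted of ribosomal RNA. The 2 libraries named siControl received either NC1 or the BLOCK-iT Fluorescent Oligo, and the 2 named siSNRNP40 received siSNRNP40 #1 or siSNRNP40 #2. The deposited table holds 1 FPKM value per transcript and condition, that is, fragment counts divided by transcript length and library total, with both libraries of a condition pooled. No value could therefore be given with an error, and no test between the conditions could be made from the pooled FPKM. The depth of the libraries is unknown, and the authors' own test results were not used. Ratios are stated as siSNRNP40 over siControl without a pseudocount.

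Serine- and arginine-rich (SR) proteins bind exons and recruit the spliceosome, and the phosphate groups on their RS domains decide where they are and what they bind. SRPK1 and SRPK2 are mainly cytoplasmic and phosphorylate RS domains so that SR proteins are imported into the nucleus, while the nuclear CLK kinases add further phosphates and release SR proteins from nuclear speckles. PRPF4B phosphorylates proteins of the tri-snRNP, the particle that brings U5 into the spliceosome, and DYRK1A and DYRK2 belong to a neighbouring kinase family with splicing factors among the substrates of DYRK1A. CLK1 and CLK4 are known for transcripts that keep the introns around exon 4 and stay in the nucleus until they are spliced.

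That exon is shown first, since it is the part of the CLK genes whose splicing is known to be regulated. In the annotation of GRCh37, the build that matches hg19, the exon lies at chr2:201724848-201724938 in CLK1, chr5:178044345-178044435 in CLK4 and chr1:155238499-155238586 in CLK2, all on the minus strand, and at chr15:74914461-74914557 in CLK3 on the plus strand. Each line gives the exon in capitals with the last 20 bases of intron 3 before it and the first 6 bases of intron 4 after it, read along the gene.
CLK1: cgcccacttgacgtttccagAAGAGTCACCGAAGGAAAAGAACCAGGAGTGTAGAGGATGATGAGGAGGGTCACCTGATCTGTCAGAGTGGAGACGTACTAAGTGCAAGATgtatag
CLK4: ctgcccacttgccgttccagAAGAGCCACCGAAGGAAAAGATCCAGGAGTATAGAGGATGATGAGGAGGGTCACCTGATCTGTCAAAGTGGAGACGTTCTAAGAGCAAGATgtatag
CLK2: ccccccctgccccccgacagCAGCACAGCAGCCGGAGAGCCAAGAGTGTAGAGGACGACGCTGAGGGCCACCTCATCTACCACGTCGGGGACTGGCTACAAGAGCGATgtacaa
CLK3: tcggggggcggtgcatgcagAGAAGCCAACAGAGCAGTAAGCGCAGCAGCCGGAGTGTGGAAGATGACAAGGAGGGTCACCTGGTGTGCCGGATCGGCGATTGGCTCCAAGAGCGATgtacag

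The exon had 91 bases in CLK1 and in CLK4, 88 in CLK2 and 97 in CLK3, and it was coding in the canonical transcript of each gene. None of these lengths is a multiple of 3, so skipping the exon changes the reading frame. Aligned with the exon of CLK1, 85 bases were identical in CLK4, 57 in CLK2 and 64 in CLK3, which is 93.4%, 62.6% and 66.0% of the longer exon of each pair. All 4 exons ended in the same 3 bases before the donor splice site.

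Annotated intron retention in these kinases gathered around that exon. The 9 canonical transcripts have 105 introns, all with gt at the donor and ag at the acceptor, and 15 of the 105 lie inside an exon of at least 1 other annotated transcript of the same gene. Of the 8 introns on either side of exon 4 in the CLK genes, 7 were retained in this sense, the exception being intron 3 of CLK2, and of the remaining 97 introns 8 were. Donor sites were compared by their first 6 bases on the strand of the gene. The donor of intron 3 read gtatga in both CLK1 and CLK4, as did 1.01% of 188494 introns in canonical transcripts of protein-coding genes. The donor of intron 4 read gtatag in both, as did 0.242% of all introns. The donor gtaagt stood at 30 of the 105 kinase introns and at 13.9% of all introns. These are properties of the annotation and the genome, and the deposited table does not say which exons or introns its transcripts hold.

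The siRNA strands that the labels give were compared with every annotated transcript of the kinases, to see whether a kinase shares their targets.
siSNRNP40 #1: ggaauagacaaugauauc
siSNRNP40 #2: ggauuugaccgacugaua
Neither 18-base sequence occurred in a transcript of any of the 9 kinases. The longest identical run was between 6 and 9 bases in the 18 pairs of siRNA and kinase gene. Of the 7 annotated SNRNP40 transcripts, 3 held siSNRNP40 #1 and 2 held siSNRNP40 #2 over the full length. Only identical runs of the strands shown were sought, and the control oligos were not compared. Effects through partial matches were not tested.

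SNRNP40, the target, had an FPKM of 40.4 in siControl and 6.12 in siSNRNP40 (log2 ratio -2.72). Markers chosen for the cell line are given in siControl and then in siSNRNP40. The mesenchymal filament gene VIM stood at 750.1 and 733.03, and the surface receptor gene CD44 at 116 and 141. The keratin gene KRT18 stood at 158 and 131, and the receptor gene ERBB2 at 6.56 and 7.42. The hormone receptor genes ESR1 and PGR were below 0.02 in both conditions, while the leukocyte gene PTPRC was listed at 0. Over 12334 genes with a mean summed FPKM of at least 1 the median log2 ratio was 0.0034, and the middle 50% lay between -0.17 and 0.17. Each library had its own siRNA, and in the pooled values the contribution of a single siRNA or library cannot be seen.

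Summed over transcripts, the 9 kinase genes differed between the conditions by amounts common among all genes. The sum of all 9 was an FPKM of 396.6 in siControl and 391.3 in siSNRNP40, a difference of -1.34%. None of the 9 sums was past an absolute log2 ratio of 1, and 1.47% of all genes were. The study set its limit of 1 for transcripts and not for gene sums, and single kinase transcripts are given below. None was past 0.5 either, beside 10.3% of all genes. At a mean FPKM of at least 5, which 8 of the 9 reached, the share of all genes past 0.5 was 5.85%. There were 4 kinase genes with a higher sum after SNRNP40 depletion and 5 with a lower one, their log2 ratios lay between -0.34 and 0.14, and the median absolute log2 ratio was 0.14, beside 0.17 over all genes. Because RNA was measured in bulk, fewer cells with a transcript and less of it per cell cannot be told apart.

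**Figure D1:**
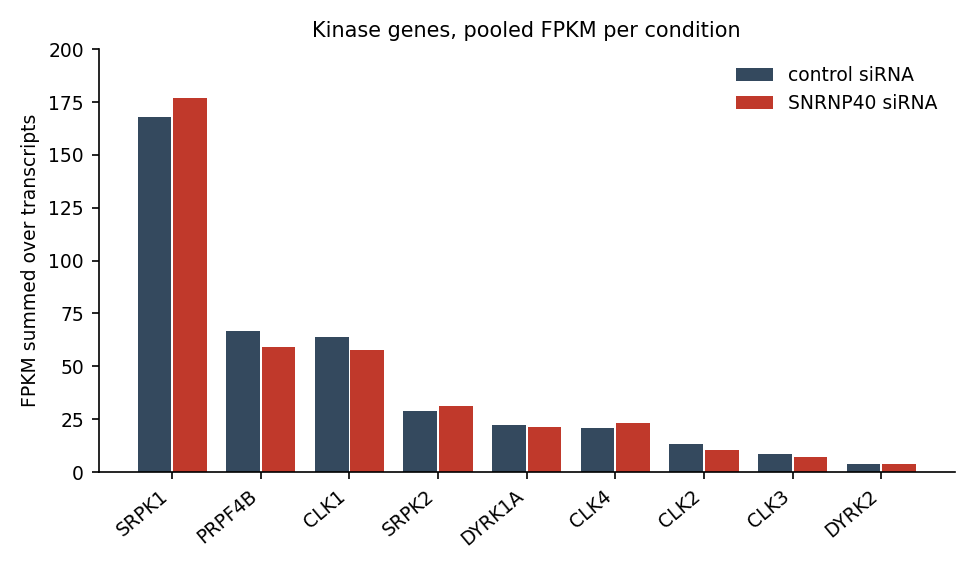
FPKM summed over the listed transcripts of each kinase gene (bars from 0), in control siRNA and SNRNP40 siRNA, with genes in order of the control level; each bar is 1 pooled value with no error. SRPK1 stands at 168 and 177, far above the other genes, and the paired bars of every gene are close to each other.

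The levels spanned a wide range. SRPK1 was the most abundant kinase transcript at an FPKM of 168 in siControl, followed by PRPF4B at 66.8 and CLK1 at 64.1, SRPK2 at 28.8, DYRK1A at 22.2, CLK4 at 20.9, CLK2 at 13.5, CLK3 at 8.76 and DYRK2 at 3.61. SRPK1 alone made up 42.4% of the summed FPKM of the 9 genes in siControl and 45.2% in siSNRNP40, and its mean level ranked 399th among the 12334 genes. The order was the same after depletion except that CLK4 (23.1) then stood above DYRK1A (21.4), a pair whose values were close in both conditions. Without values per library it is unknown which neighbours in this order differ beyond their spread.

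Among the nuclear CLK kinases, CLK1 and CLK4 were compared first because of their regulated introns. CLK1 had a summed FPKM of 64.1 in siControl and 57.8 in siSNRNP40 (log2 ratio -0.15). CLK4 had 20.9 and 23.1 (0.14). The sums of these closest relatives differed in direction, but the most expressed transcript of CLK1 had a log2 ratio of 0.04, with the same sign as CLK4. The ratio of the sums of CLK1 to CLK4 was 3.06 in siControl and 2.51 in siSNRNP40. A log2 ratio of at least the size seen in CLK1 occurred in 55.4% of all genes, and one of at least the size seen in CLK4 in 57.4%. The canonical transcripts of this pair align over 1301 bases at 78.7% identity.

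CLK2 and CLK3, the other members of the family, were both lower after SNRNP40 depletion. CLK2, a nuclear kinase that also acts in signalling by insulin, went from 13.5 to 10.6 (log2 ratio -0.34), the largest ratio among the 9 genes in either direction. CLK3 went from 8.76 to 7.30 (-0.26). As large a ratio in either direction was found in 21.1% of all genes for CLK2 and in 31.4% for CLK3. Together the CLK genes summed to 107 in siControl and 98.8 in siSNRNP40, with CLK1 contributing 59.8% and 58.5% and CLK4 19.5% and 23.3%. A processed pseudogene, CLK2P1, matches 1140 bases of the CLK2 transcript at 96.7% identity, and the table lists it, under its older symbol CLK2P, at 0.0345 in siControl and 0.0204 in siSNRNP40.

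The cytoplasmic SRPK kinases were both slightly higher. SRPK1 had an FPKM of 168 in siControl and 177 in siSNRNP40 (log2 ratio 0.07), and SRPK2 had 28.8 and 31.1 (0.11). The ratio of SRPK1 to SRPK2 was 5.84 and 5.68, so their proportion was nearly the same in both conditions. Ratios at least as large as these occurred in 75.9% of all genes for SRPK1 and in 64.6% for SRPK2. The annotated SRPK1 transcript overlaps a transcript of LHFPL5 by 1882 bases on the opposite strand, but the loci of the genes in the table do not overlap, and LHFPL5 was listed at 0.960 and 1.15. A processed pseudogene, SRPK2P, aligns with SRPK2 over 1095 bases at 91.3% identity. PRPF4B, the kinase of the tri-snRNP to which SNRNP40 belongs through U5, had 66.8 in siControl and 59.3 in siSNRNP40 (log2 ratio -0.17), and 49.4% of genes had as large a ratio. It is listed as a single transcript. A processed pseudogene of PRPF4B aligns over 3031 bases at 90.9% identity.

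DYRK1A, a dosage-sensitive kinase on chromosome 21, had a summed FPKM of 22.2 in siControl and 21.4 in siSNRNP40 (log2 ratio -0.06), the smallest ratio of the 9 sums. Represented by its most expressed transcript alone, DYRK1A had a log2 ratio of -0.73, the largest of the 9 in that setting. DYRK2, which phosphorylates p53 and marks proteins for degradation, had 3.61 and 3.91 (0.11) and was the least abundant member. As large a ratio was found in 81.9% of all genes for DYRK1A and in 64.6% for DYRK2.

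**Figure D2:**
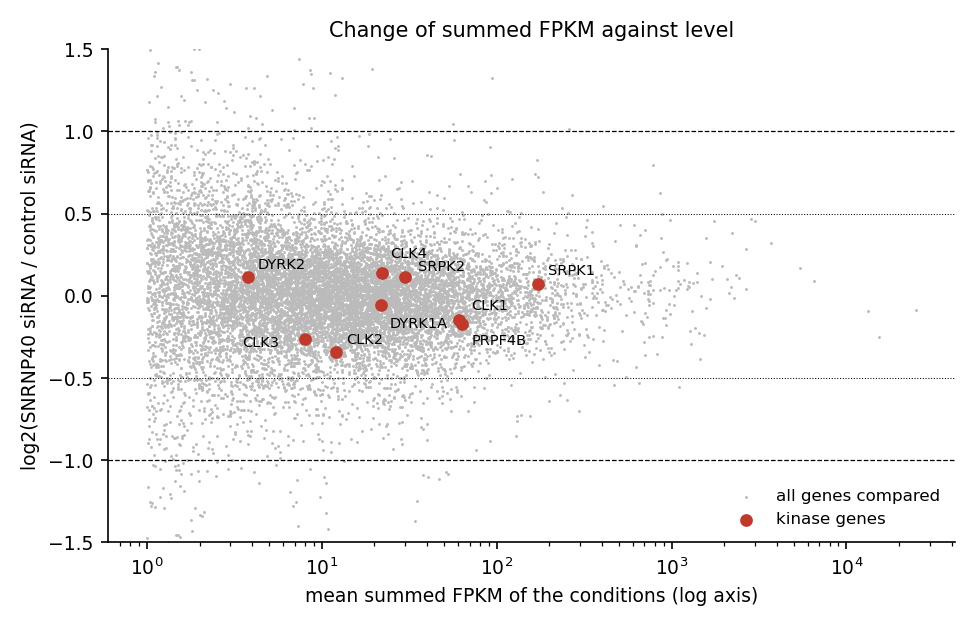
Log2 ratio of summed FPKM, SNRNP40 siRNA over control siRNA, against the mean summed FPKM of the conditions (log axis), for 12334 genes in grey and the 9 kinase genes in red; dashed lines mark an absolute log2 ratio of 1, dotted lines 0.5, and 54 genes beyond 1.5 are not drawn. All red points lie between -0.34 and 0.14, inside the dotted lines.

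Single transcripts were past an absolute log2 ratio of 1 more often than gene sums, among the kinases as among all genes. Of the 20 listed kinase transcripts 17 were above 0 in both conditions and averaged an FPKM of at least 1. The other 3 were a DYRK2 transcript listed at 0 in both conditions, a DYRK1A transcript listed at 0.197 in siControl and at 0 in siSNRNP40, and a CLK3 transcript at 0.587 and 0.349. Of the 17, 3 were past an absolute log2 ratio of 1 (17.6%), while 10.5% of all 16691 transcripts passing the same filter were. The median absolute log2 ratio was 0.27 for the 17 and 0.25 for all of these transcripts. The transcripts of a gene share its fragments through cuffdiff's model, so their values are not independent of each other.

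All of these 3 were minor transcripts, with at most 15.8% of their gene's FPKM in either condition. The transcript is identified here by its order in the table. SRPK2 transcript 1 went from 1.36 in siControl to 4.92 in siSNRNP40 (log2 ratio 1.85), while transcript 2, which held 95.3% and 84.2% of the gene's FPKM, had 27.4 and 26.2 (-0.06). The slightly higher SRPK2 sum after depletion thus came from the minor transcript.

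DYRK1A transcript 1 went from 0.948 to 2.99 (log2 ratio 1.66). The other transcripts of DYRK1A with values in both conditions differed in both directions, transcript 3 with 5.69 and 4.72 (-0.27), transcript 4 with 6.29 and 8.18 (0.38) and transcript 5 with 9.07 and 5.48 (-0.73). The most expressed DYRK1A transcript was therefore transcript 5 in siControl, with 40.9% of the sum, and transcript 4 in siSNRNP40, with 38.3%. DYRK1A was the only 1 of the 6 kinase genes with several listed transcripts in which the leading transcript differed between the conditions (16.7%), beside 14.8% of 5282 such genes in all. The deposited status flag of transcript 5 was LOWDATA, cuffdiff's mark for a locus it considered too shallow or too complex to test, and the other 4 carried OK or NOTEST.

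CLK1 is listed as 4 transcripts, and 2 of them carried most of its FPKM. Transcript 2 had 34.4 in siControl and 35.4 in siSNRNP40 (log2 ratio 0.04), and transcript 4 had 25.9 and 19.9 (-0.38). Transcript 3 went from 2.75 to 1.09 (-1.33) and transcript 1 from 1.04 to 1.48 (0.51). The lower CLK1 sum was thus carried by transcripts 3 and 4, and the share of transcript 2 was 53.7% in siControl and 61.2% in siSNRNP40. With 1 added to both values transcript 3 of CLK1 was no longer past the limit and the transcripts of SRPK2 and DYRK1A were, which left 2 of 17, beside 6.27% of all transcripts. At a mean FPKM of at least 5, 0 of the 11 remaining kinase transcripts were past it, beside 3.46% of all transcripts.

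SRPK1 and CLK3 each kept 1 leading transcript. SRPK1 transcript 1 had 165 in siControl and 174 in siSNRNP40, which was 97.9% and 98.2% of the gene, and CLK3 transcript 1 had 8.17 and 6.95, which was 93.3% and 95.2%. CLK2, CLK4 and PRPF4B are listed with a single transcript each, so nothing can be said of their isoforms, although the annotation holds 13 transcripts of CLK4 of which 7 are classed as retained introns.

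**Figure D3:**
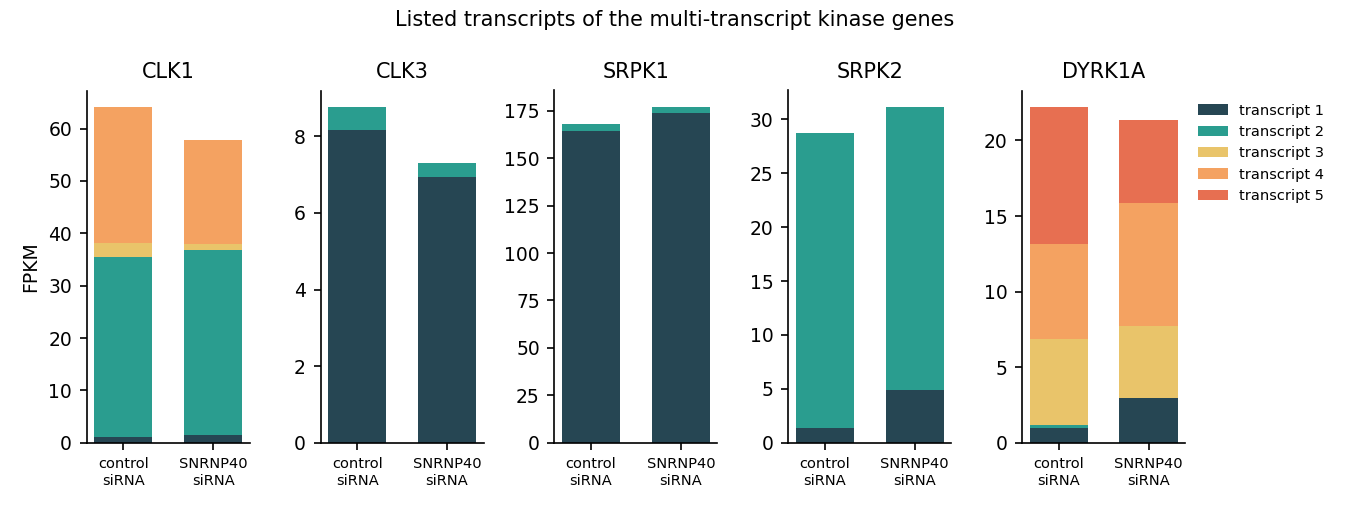
FPKM of each listed transcript, stacked within control siRNA and SNRNP40 siRNA, for the 5 kinase genes with more than 1 transcript above 0 (bars from 0, a separate axis for each gene, 1 pooled value per condition). SRPK2 transcript 1 goes from 1.36 to 4.92 under a nearly constant total, and the leading DYRK1A transcript is transcript 5 in control siRNA and transcript 4 in SNRNP40 siRNA.

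How much of a gene's FPKM moved between its transcripts was measured as the sum of the gains in share over those transcripts whose share was larger in siSNRNP40, in percent, so that 0 means equal proportions. It was 19.6% for DYRK1A, 11.1% for SRPK2, 8.40% for CLK1, 1.92% for CLK3 and 0.239% for SRPK1, and 0 for DYRK2 because 1 of its 2 listed transcripts was at 0 in both conditions. The median over 5282 genes with at least 2 listed transcripts was 7.66%, and the middle 50% lay between 2.13% and 18.2%. The value of DYRK1A was reached by 23.0% of these genes, that of SRPK2 by 39.8% and that of CLK1 by 47.1%. Genes with more transcripts have larger values, and among the 338 genes with 5 transcripts, as DYRK1A has, the median was 13.2% and 33.7% had at least as much. Among the 657 genes with 4 transcripts, as CLK1 has, the median was 11.1%. Among the 2510 genes with 2 transcripts, as SRPK2 has, it was 4.37%, and 28.0% reached the value of SRPK2.

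**Figure D4:**
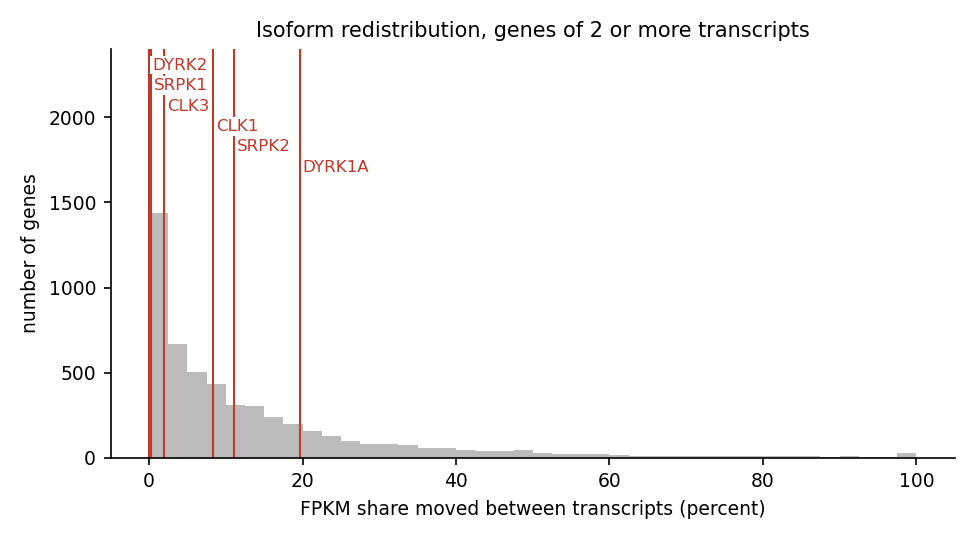
Number of genes (bars from 0) by the percent of their FPKM share that moved between transcripts, for 5282 genes with at least 2 listed transcripts and a mean summed FPKM of at least 1; red lines mark the 6 kinase genes. DYRK1A lies furthest to the right at 19.6%, and DYRK2 and SRPK1 lie at or near 0.

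The kinase genes differ in their architecture in ways the choice of members did not use. Each CLK gene has 13 exons and 12 introns in its canonical transcript, with median introns of 537 bases in CLK1, 620 in CLK2, 667 in CLK3 and 1244 in CLK4. SRPK1 and SRPK2 have 15 introns each with medians of 1603 and 1952 bases, PRPF4B has 14 with a median of 1682, DYRK1A has 11 with a median of 5327, and DYRK2 has only 2. Of the introns annotated as retained, 13 were among the 48 of the CLK genes and 2 among the 57 of the other 5 kinases. The sums of the CLK genes, at log2 ratios from -0.34 to 0.14, and those of the other kinases, from -0.17 to 0.11, overlapped.

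Genes that act with these kinases were read from lists of related kinases, SR protein substrates, SR-related substrates, phosphatases and import factors, and DYRK partners. Of 53 symbols 52 are in the table, the absent DCAF1 being listed under its older symbol VPRBP, and 49 had a mean summed FPKM of at least 1. None of the 49 was past an absolute log2 ratio of 1 and 2 were past 0.5, both lower after SNRNP40 depletion (4.08%, beside the 10.3% of all genes given above). The median log2 ratio of the 49 was -0.06, and 17 were higher and 32 lower, against 50.5% higher over all genes.

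Among 11 related kinases the median log2 ratio was -0.003. HIPK1, a nuclear kinase that phosphorylates transcription factors, had 10.2 in siControl and 6.91 in siSNRNP40 (-0.57), past 0.5, and DYRK1B, the closest relative of DYRK1A, had 1.70 and 2.10 (0.31). Among 13 genes of SR protein substrates, 10 were lower and 3 higher and the median was -0.08. SRSF8 was lowest with 11.03 and 8.10 (-0.44) and SRSF5 highest with 121 and 131 (0.12). Among 12 SR-related substrates, which include spliceosome proteins with RS domains and targets of PRPF4B, 7 were higher and the median was 0.04. PNN, a speckle protein, had 57.2 and 47.1 (-0.28), and SRRM1, a splicing coactivator, had 11.02 and 12.97 (0.23).

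Genes of phosphatase subunits, together with those of transportins, which import proteins into the nucleus, numbered 9. Of these, 8 were lower after SNRNP40 depletion, and the median log2 ratio was -0.16. PPP1CA, a catalytic subunit of protein phosphatase 1, had 88.0 in siControl and 60.01 in siSNRNP40 (-0.55), past 0.5. PPM1G was the 1 gene higher, with 141 and 152 (0.11). Among 4 DYRK partners the median was -0.11, from DCAF7, a scaffold that binds DYRK1A, with 11.6 and 9.37 (-0.31), to VPRBP, part of the ligase assembled by DYRK2, with 8.46 and 9.61 (0.18).

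**Figure D5:**
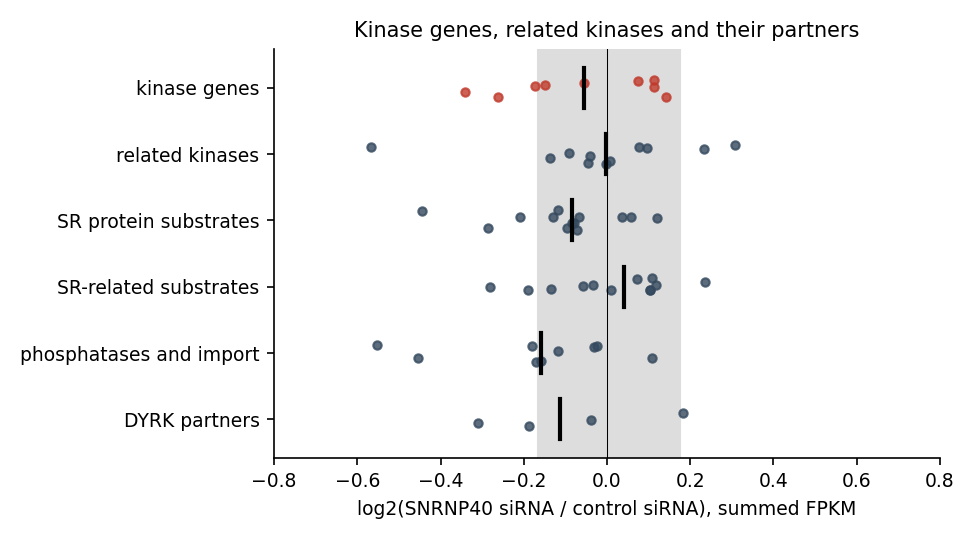
Log2 ratio of summed FPKM, SNRNP40 siRNA over control siRNA, of each gene (points, spread vertically for visibility) in the kinase genes and 5 lists of related genes; black bars are medians, and the grey band is the middle 50% of 12334 genes, from -0.17 to 0.17. The list medians lie between -0.16 and 0.04, all inside the band.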

How the data were processed

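The submitters' processing notes name cutadapt 1.2.1, TopHat2 2.0.8, Cufflinks, Cuffdiff 2.0.2 and the build hg19. In the deposited table FPKM is given once for every transcript and condition, scaled by the authors for length and mapped fragments. The table also holds the authors' log2 ratios, test statistics, p-values and q-values, which were not used. With pooled values, ratios were described without a test.

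Ratios were computed from FPKM per transcript and from FPKM summed per gene symbol, at a mean of at least 1 over the 2 conditions and above 0 in both. Steps were run on control values with little added noise and planted changes well past an absolute log2 ratio of 1. That checks the code and not how reliable a call is in these data. Alternatives changed the pseudocount, filter, scaling and summing. Named genes are the 9 kinases, SNRNP40, the cell line markers and the highest and lowest gene of each list. Genes sharing sequence with a kinase are also named, and PPP1CB, PPP1CC, DYRK3 and HIPK3 were chosen after their values were seen. Members and lists were chosen with earlier results of these data known. Gene models came from GENCODE release 44 mapped to GRCh37, and similar transcripts from blastn 2.17.0 in that annotation. Scripts ran in Python 3.11.15 with pandas 2.3.3, numpy 2.4.6 and Biopython 1.88, with samtools 1.23.1 for the genome.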

Additional observations from a re-analysis of the deposited data

How the results depend on the processing

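No paired analysis was possible because FPKM is given only for pooled libraries, which also meant that leaving out a replicate was not run. Depth is unknown. The count of kinase gene sums past an absolute log2 ratio of 1 was 0 in each of the 5 alternatives, beside 0.559% to 10.8% of all genes. Past 0.5 the count was 1 (DYRK1A) when only the most expressed transcript stood for a gene, beside 15.7% of all genes. It was 0 in the other 4, beside 5.72% to 24.1% of all genes. The 3 kinase transcripts past 1 became 0 at a mean FPKM of at least 5, where 11 were left to count and 3.46% of all transcripts were past 1, and 2 with a pseudocount of 1 (6.27% of all). The count was 3 with upper-quartile scaling (10.6% of all), with median centring (10.5%) and without a filter (24.2%). The log2 ratio of SNRNP40, -2.72, became -2.54 with a pseudocount of 1. Of 36 alternative log2 ratios of the kinase genes, 33 were within 0.1 of those reported. The other 3 came from the most expressed transcript, at 0.04 for CLK1 and -0.06 for SRPK2, both with the opposite sign, and -0.73 for DYRK1A. Many of the 36 values could not move by 0.1. Median centring and upper-quartile scaling shift all genes alike, by 0.0034 and 0.03. Genes with 1 transcript above 0 (CLK2, CLK4, PRPF4B and DYRK2) are unchanged when the most expressed transcript stands for them. Shares moved between transcripts kept within 5 points when transcripts below a mean FPKM of 0.1 or 1 were left out. CLK3 had a single transcript left in the second setting and DYRK2 in both, so they gave no value there.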

Other observations

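The 3 genes of catalytic subunits of protein phosphatase 1, which oppose the kinases on SR proteins, were all lower after SNRNP40 depletion, with a summed FPKM of 88.0 and 60.01 for PPP1CA, 90.1 and 65.8 for PPP1CB (log2 ratio -0.45) and 87.4 and 80.5 for PPP1CC (-0.12). PPP1CB and PPP1CC, and the genes in the next paragraph, were chosen after their values were seen.

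Larger shares of FPKM moved between transcripts in DYRK3 (48.9%) and VPRBP (48.7%) than in any of the 6 multi-transcript kinase genes above. DYRK3, a kinase that dissolves nuclear speckles in dividing cells, has 2 listed transcripts, of which the first went from an FPKM of 0.532 in siControl to 6.24 in siSNRNP40 and the second from 10.3 to 5.37, while their sum was 10.9 and 11.6 (log2 ratio 0.10). For VPRBP the first transcript went from 4.12 to 2.62e-04 and the third from 4.34 to 9.61. HIPK3, a relative of the DYRK kinases, also had transcripts that differed in opposite directions, 6.75 and 12.0 for the first and 5.08 and 1.97 for the second. The exons of these transcripts are not given, and their values depend on how fragments were divided among transcripts.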
